A study of Mus musculus with 12 samples.

Results

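Jun, Junb, Jund, Atf3, Maff, Mafg and Mafk, which encode the 3 JUN proteins, ATF3 and the 3 small MAF proteins, were read out in RNA-seq of mouse cell lines of embryonic fibroblast (MEF) origin. The 7 genes were chosen by name, with earlier results of these data known. The Ensembl identifiers of the count table were matched to gene symbols, and all 7 were found among 37310 genes. The lines are a knockout of Cbx3 (labelled HP1g -/-, written KO here), which lacks the heterochromatin protein HP1γ per its label, and a line to which HP1γ expression was restored (HPg). KO cells with PMA and HPg cells with PMA received 100 nM phorbol 12-myristate 13-acetate, a diacylglycerol mimic that switches on protein kinase C, in DMSO for 30 min when nearly confluent. KO cells and HPg cells without PMA were grown in the same serum-containing medium, and the sources used here do not give their vehicle. Each of the 4 groups has 3 libraries, described as biological triplicates. A single line stands for each genotype, so the effect of the genotype and that of the line cannot be told apart, and each p-value reflects culture-to-culture spread only.

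JUN proteins are basic leucine zipper transcription factors that bind DNA as dimers with one another, with FOS proteins or with ATF proteins, and the JUN-FOS dimer is known as AP-1. ATF3 is a stress-induced member of the ATF family that can repress or activate genes depending on its partner. Small MAF proteins have no activation domain of their own and bind antioxidant response elements as dimers with CNC proteins such as NRF2 or with BACH proteins. Several genes of these families are immediate-early genes, whose transcription rises within minutes of a phorbol ester or growth factor without new protein synthesis.

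Total counts per library ranged from 111458145 to 159929347. The lowest number of detected genes was 17822, in HPg library 2, and the other libraries detected 19759 to 20656. Between 8.59% and 19.2% of a library's counts fell on the noncoding RNAs Rpph1, Rn7sk and Rmrp. Levels are given as CPM after scaling the libraries with TMM factors, and a gene was called changed at an adjusted p below 0.05 in the edgeR quasi-likelihood test over 16630 genes. All 7 genes passed the filter on low counts. Cbx3 had 33.3, 26.9 and 35.2 CPM in KO cells with PMA, against 43.1, 33.8 and 38.9 CPM in HPg cells with PMA. Without PMA it had 35.5, 39.0 and 35.0 CPM in KO cells, against 37.1, 37.4 and 41.5 CPM in HPg cells. Its level did not pass the test between the lines with PMA (log2 fold change -0.28, edgeR adjusted p = 0.269) or without it (-0.08, adjusted p = 0.838), so this count does not check the knockout label, and KO below means the library labelled knockout. Counts over a gene do not show which part of its transcript is present. Fibroblast markers summed to 9630 to 16524 CPM per library, with Col1a1 at 2887 to 7339 CPM and Vim at 2798 to 4970 CPM. In the same list, however, Thy1 was at or near 0 and Lum stayed under 0.410 CPM. Col1a2 had only 6.32 to 18.8 CPM and Dcn 1.71 to 15.9 CPM. Epithelial markers summed to 5.0 to 10.2 CPM, endothelial ones to 1.04 to 3.88 CPM, blood and immune ones to 1.2 to 3.25 CPM and adipocyte ones to 0.755 to 3.71 CPM. The neural list reached 170 to 339 CPM and the muscle list 21.2 to 79.2 CPM. Map2 alone made 169 to 339 CPM of the neural list and Acta1 alone 20.9 to 78.3 CPM of the muscle list, while Tubb3 and Myod1 were listed at 0. The libraries numbered 2 stood apart from their groups in matrix genes, with Col3a1 at 2306 to 2822 CPM in these 4 libraries and 616 to 1413 CPM in the other 8. Matched numbers deviated together across all genes, so the fit with the replicate number as a block is given beside the calls it changes.

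The promoters of the 5 genes called after PMA are shown with the searched motif that each window held. The RefSeq windows (GRCm38.p6, 250 bases before the annotated start and 50 from it on) are written 5′ to 3′ on the gene's strand, with the motif in capitals. The motifs were chosen with these sequences in view and were searched on both strands. A match describes letters only.
Jun promoter, chr4:95052173-95052472, minus strand: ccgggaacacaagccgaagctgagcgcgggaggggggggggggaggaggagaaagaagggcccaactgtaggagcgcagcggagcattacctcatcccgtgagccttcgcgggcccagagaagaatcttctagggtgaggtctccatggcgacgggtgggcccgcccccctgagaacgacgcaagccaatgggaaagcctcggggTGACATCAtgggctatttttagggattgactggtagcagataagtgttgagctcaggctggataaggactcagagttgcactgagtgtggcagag
Junb promoter, chr8:84978699-84978998, minus strand: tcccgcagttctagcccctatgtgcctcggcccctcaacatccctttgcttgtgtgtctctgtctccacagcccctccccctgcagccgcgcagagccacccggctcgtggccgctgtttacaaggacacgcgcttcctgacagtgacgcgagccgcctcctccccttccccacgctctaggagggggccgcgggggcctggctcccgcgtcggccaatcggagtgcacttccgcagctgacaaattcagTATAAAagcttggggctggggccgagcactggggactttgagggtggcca
Atf3 promoter, chr1:191183284-191183583, minus strand: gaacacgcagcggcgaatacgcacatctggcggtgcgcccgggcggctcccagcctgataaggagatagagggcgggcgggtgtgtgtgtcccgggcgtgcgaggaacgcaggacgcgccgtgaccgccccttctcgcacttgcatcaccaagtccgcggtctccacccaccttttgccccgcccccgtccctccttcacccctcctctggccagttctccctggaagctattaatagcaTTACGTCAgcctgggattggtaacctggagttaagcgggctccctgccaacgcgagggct
Maff promoter of the third RefSeq start, chr15:79348152-79348451, plus strand: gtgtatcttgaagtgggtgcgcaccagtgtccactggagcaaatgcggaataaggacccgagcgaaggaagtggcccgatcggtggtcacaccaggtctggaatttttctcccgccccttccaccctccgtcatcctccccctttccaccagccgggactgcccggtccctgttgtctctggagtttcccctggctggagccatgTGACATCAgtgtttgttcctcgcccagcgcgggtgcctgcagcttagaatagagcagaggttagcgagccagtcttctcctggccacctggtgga
Mafk promoter, chr5:139791286-139791585, plus strand: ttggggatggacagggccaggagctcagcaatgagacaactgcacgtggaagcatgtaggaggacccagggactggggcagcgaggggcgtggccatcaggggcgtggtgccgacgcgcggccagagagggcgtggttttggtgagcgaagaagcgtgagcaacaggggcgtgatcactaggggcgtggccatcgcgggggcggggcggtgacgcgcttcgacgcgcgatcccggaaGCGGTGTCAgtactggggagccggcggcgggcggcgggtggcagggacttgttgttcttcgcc

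Jun and the third Maff window both held TGACATCA, the form of AP-1 site known from the Jun promoter, at bases -45 to -38 from the annotated start. These letters occur in 3.62% of 32851 mouse promoter windows of the same length. Atf3 held TTACGTCA, an ATF-type site, at -10 to -3, which 0.499% of windows contain. A second Maff window held the cAMP response element TGACGTCA at -29 to -22, found in 1.79% of windows. Mafk held the antioxidant response core TGACNNNGC on the opposite strand at -13 to -5, and Mafg and the first Maff window also held it, against 12.4% of all windows. The Junb window held TATAAA at bases 1 to 6 from the RefSeq start, which lies 30 bases from the nearest GENCODE start, and 13.6% of windows hold these letters. None of the 9 windows of the 7 genes held TGANTCA, a pattern wider than the canonical AP-1 site that it covers (7.81% of windows). None held a CArG box (1.63%). The 9 include the Jund window, whose RefSeq start lies 1210 bases from the nearest GENCODE start. It therefore does not describe the start of the Jund transcript in that annotation. Jund and Mafg were not called after PMA, so their windows are not shown. Jun and Jund have a single exon, and the transcripts of the 7 genes run from 52.2% GC in Atf3 to 67.1% in Jund, a GC content exceeded by 0.355% of the tested genes.

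PMA raised 5 of the 7 genes in each line within 30 min: Junb, Atf3, Jun, Maff and Mafk. The increase was 23.3-fold for Junb in KO cells and 18.1-fold in HPg cells, and 2.60-fold for Mafk in KO cells and 2.16-fold in HPg cells, with the other 3 genes between them. Jund and Mafg did not pass the test in either line. Of all tested genes, 2.81% were called higher with PMA in KO cells and 2.53% in HPg cells. In either direction these shares were 4.44% and 3.45%.

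Junb, which encodes a JUN protein that weakens JUN activity in some dimers and drives transcription in others, had 1171, 1369 and 1089 CPM in KO cells with PMA, against 70.4, 44.5 and 41.2 CPM in KO cells without it. In HPg cells it had 667, 1279 and 764 CPM with PMA, against 58.2, 53.4 and 38.5 CPM without. Every library with PMA lay far above every library without it, and HPg library 2 with PMA lay within the range of the KO libraries with PMA. Its log2 fold change was 4.54 ± 0.32 (SE) in KO cells (edgeR adjusted p = 3.92e-06), rank 18 of 16630 genes by increase, and 4.17 ± 0.31 in HPg cells (adjusted p = 9.06e-06), rank 23.

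Jun encodes c-Jun, the JUN protein most directly activated by JNK phosphorylation. It had 218, 265 and 229 CPM in KO cells with PMA, against 64.6, 73.1 and 59.9 CPM in KO cells without it. HPg cells had 149, 190 and 152 CPM with PMA, against 71.9, 73.8 and 53.8 CPM without. The groups with and without PMA did not overlap in either line, and the KO libraries with PMA all lay above the HPg libraries with PMA. The log2 fold change with PMA was 1.85 ± 0.16 (SE) in KO cells (adjusted p = 2.83e-05) and 1.30 ± 0.16 in HPg cells (adjusted p = 0.000619).

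Jund encodes the JUN protein that many resting cells express constitutively. It had 255, 205 and 143 CPM in KO cells with PMA, against 162, 193 and 140 CPM in KO cells without it. The HPg libraries had 148, 195 and 146 CPM with PMA, against 174, 266 and 141 CPM without. The groups overlapped throughout, with KO library 1 highest under PMA and HPg library 2 highest without it. The log2 fold change was 0.29 in KO cells (95% interval -0.26 to 0.83, adjusted p = 0.682) and -0.25 in HPg cells (-0.79 to 0.30, adjusted p = 0.687). Without HPg library 2 the value in HPg cells was 0.05.

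Atf3 had 43.8, 60.5 and 42.7 CPM in KO cells with PMA, against 5.14, 6.63 and 4.88 CPM in KO cells without it. In HPg cells it had 22.8, 44.7 and 26.4 CPM with PMA, against 7.62, 4.86 and 5.35 CPM without. The PMA libraries stood above the untreated ones in both lines, and HPg library 2 with PMA was the only HPg library to reach the KO range. The log2 fold change was 3.14 ± 0.28 (SE) in KO cells (adjusted p = 3.62e-05, rank 53 by increase) and 2.40 ± 0.27 in HPg cells (adjusted p = 0.000386, rank 94).

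**Figure D1:**
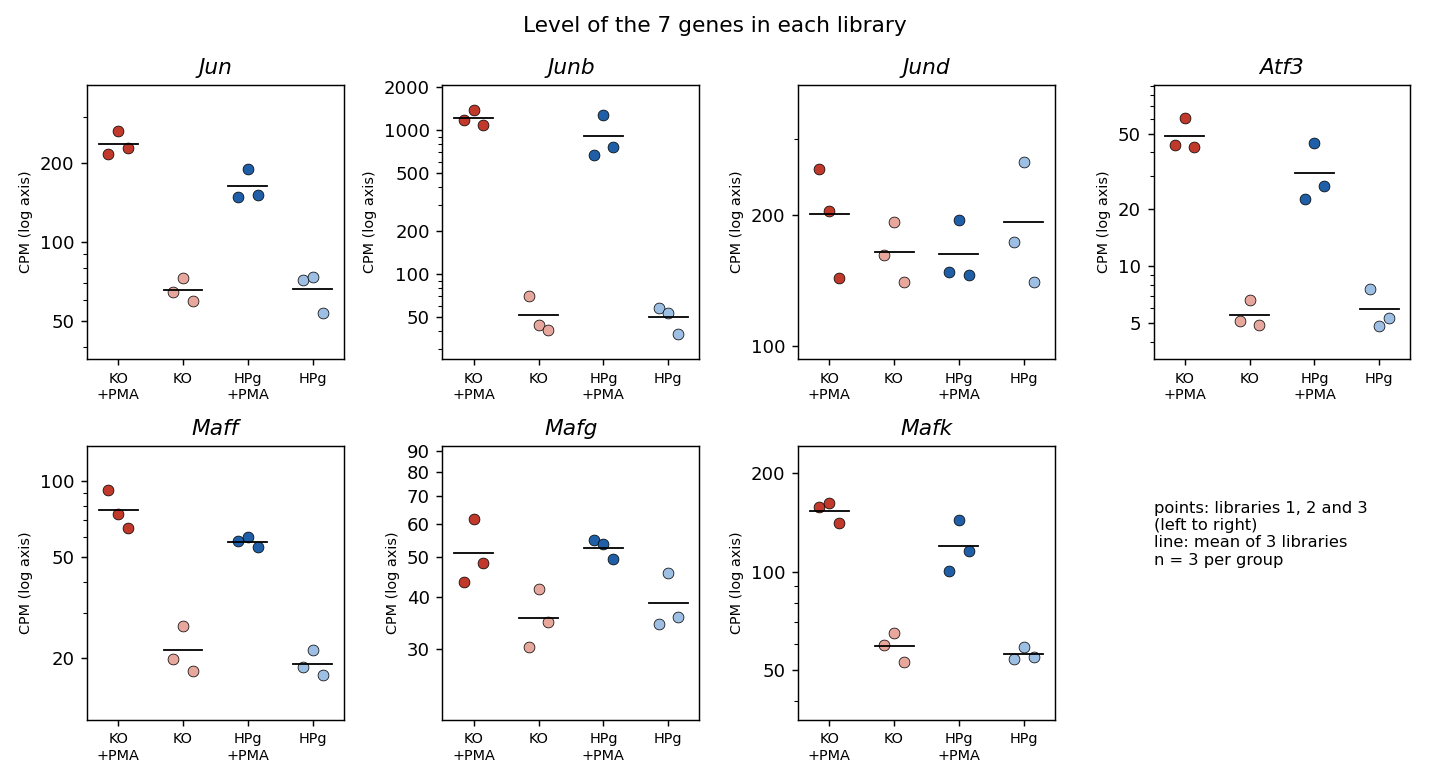
CPM of each gene on a log axis in KO cells with PMA, KO cells, HPg cells with PMA and HPg cells (points: libraries 1, 2 and 3, line: mean of 3). Junb, Jun, Atf3, Maff, Mafk and Mafg separate fully by PMA in both lines, while Jund groups overlap.

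Of the small MAF genes, Maff and Mafk were called with PMA in both lines and Mafg in neither. Maff, the small MAF gene known for induction by cytokines and stress, had 92.3, 73.9 and 65.4 CPM in KO cells with PMA, against 19.8, 26.6 and 17.8 CPM in KO cells without it. HPg cells had 57.9, 60.0 and 55.0 CPM with PMA, against 18.4, 21.4 and 17.0 CPM without. The 3 HPg libraries with PMA were closely spaced and all lay below the 3 KO libraries with PMA. The log2 fold change with PMA was 1.85 ± 0.17 (SE) in KO cells (adjusted p = 5.10e-05) and 1.61 ± 0.17 in HPg cells (adjusted p = 0.000272).

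Mafk, a small MAF partner of NFE2 and NRF proteins, had 158, 162 and 141 CPM in KO cells with PMA, against 59.6, 65.0 and 52.6 CPM in KO cells without it. The HPg libraries had 100, 144 and 116 CPM with PMA, against 53.7, 58.7 and 54.6 CPM without. Treated and untreated libraries did not overlap in either line. The log2 fold change was 1.38 ± 0.14 (SE) in KO cells (adjusted p = 0.000103) and 1.108 ± 0.139 in HPg cells (adjusted p = 0.000853).

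Mafg, which encodes the small MAF protein closest in function to MafK in mice, had 43.4, 61.7 and 48.2 CPM in KO cells with PMA, against 30.3, 41.8 and 34.7 CPM in KO cells without it. In HPg cells it had 54.8, 53.6 and 49.4 CPM with PMA, against 34.4, 45.8 and 35.7 CPM without. The libraries with PMA stood above those without in both lines, by less than for the other small MAF genes. Its log2 fold change of 0.52 ± 0.16 (SE) in KO cells did not pass the test (adjusted p = 0.105, and 0.00438 in the fit with the replicate number as a block), nor did 0.44 ± 0.16 in HPg cells (adjusted p = 0.173, and 0.0094 with the block). In the blocked fit 6 of the 7 genes were therefore called higher in each line, beside 6.79% of all genes in KO cells and 8.62% in HPg cells. Libraries with and without PMA did not overlap for the same 6 genes, a pattern that 10.6% of all genes showed upward in KO cells and 12.3% in HPg cells.

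**Figure D2:**
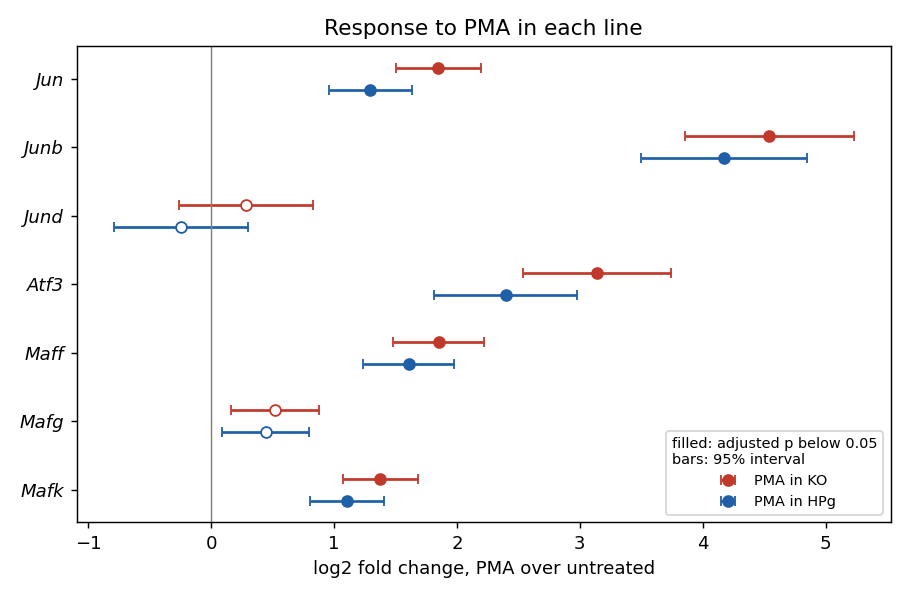
Log2 fold change with PMA in KO cells (upper point of each pair) and HPg cells (lower point), with 95% intervals; filled points have an adjusted p below 0.05. Junb leads at 4.54 in KO cells and 4.17 in HPg cells, and the intervals of Jund include 0.

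The count of 5 genes called higher in each line was the same under every other scaling, filter and tool without the block, and without any 1 of the 12 libraries. The split of all calls was 468 higher and 271 lower with PMA in KO cells, but 307 and 424 when scaled by library size alone and 410 and 349 with upper-quartile factors. In HPg cells it was 421 and 153, and 316 and 193 with upper-quartile factors. Scaling by library size alone moved the median log2 fold change of all genes with PMA in KO cells to -0.14, against -0.02 with TMM factors. In bulk RNA, a change in the number of cells that express a gene and a change in RNA per cell cannot be told apart.

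Reads of some of these genes may have been counted for an overlapping neighbour or for neither gene. The sources used here do not give the strand setting of the counting. Jun overlaps the antisense gene Junos, which had 15.9 to 17.4 CPM in KO cells with PMA and 7.58 to 10.1 CPM without it. In HPg cells Junos had 17.0 to 21.1 CPM with PMA and 10.5 to 12.8 CPM without it. Junos was itself called higher with PMA (0.91 in KO cells, adjusted p = 0.00372, and 0.74 in HPg cells, adjusted p = 0.0165). Between the lines (KO over HPg) Junos had -0.27 with PMA (edgeR adjusted p = 0.348) and -0.44 without it (adjusted p = 0.181). With the block it was called lower in KO cells without PMA (adjusted p = 0.0408) but not with PMA (adjusted p = 0.159). The share of the Junos counts that comes from Jun reads was not tested. Junb overlaps Prdx2, Mafg overlaps Sirt7 and Mafk overlaps Tmem184a, and none of these neighbours was called with PMA, with log2 fold changes of -0.44 to 0.26. Between the lines, the blocked edgeR fit called Tmem184a higher in KO cells with PMA (1.00, adjusted p = 0.00314) and without it (0.69, adjusted p = 0.0286). The unblocked fit did not (adjusted p = 0.381 and 0.62). Neither fit called Prdx2 or Sirt7 between the lines. The part of Tmem184a reads in the Mafk counts was not tested. Sirt7 lies on the same strand as Mafg with overlapping exons, so the strand setting alone does not separate that pair. Jund overlaps the antisense gene Gm11175, whose mean was 0.845 to 1.19 CPM by group.

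Per kilobase of merged exons (TMM-scaled CPM per kb), Jund was the most abundant of the 7 genes without PMA and Junb with it. Jund had 99.0 ± 15.9 CPM per kb in KO cells and 116 ± 38.9 in HPg cells without PMA (SD, n = 3 each), against 22.6 ± 6.95 and 21.7 ± 4.45 for Junb. With PMA, Junb had 526 ± 62.6 CPM per kb in KO cells and 393 ± 143 in HPg cells, against 121 ± 33.5 and 97.8 ± 16.5 for Jund. Without PMA, Junb and Jun were neighbours in the order that did not differ beyond their spread, with Jun at 20.7 ± 2.08 CPM per kb in KO cells and 20.9 ± 3.46 in HPg cells. Atf3 was lowest without PMA, at 2.58 ± 0.439 CPM per kb in KO cells and 2.76 ± 0.684 in HPg cells. With PMA it had 22.7 ± 4.65 CPM per kb in KO cells and 14.5 ± 5.45 in HPg cells, and Mafg was lowest at 9.10 ± 1.70 and 9.37 ± 0.507. Maff and Atf3 overlapped with PMA in KO cells (25.2 to 35.6 and 19.8 to 28.1 CPM per kb), as did Maff and Mafg without PMA in both lines (6.85 to 10.3 and 5.40 to 7.44 in KO cells).

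Junb made up most of the JUN family transcript level with PMA, and Jund without it, in both lines. Junb made up 73.0 ± 2.87% of the summed JUN family level per kb in KO cells with PMA, against 15.9 ± 4.32% in KO cells without it. In HPg cells its share was 71.7 ± 3.93% with PMA and 14.0 ± 2.67% without. Jund made up 16.6 ± 3.84% in KO cells with PMA, against 69.5 ± 3.80% without, and 18.5 ± 2.48% in HPg cells with PMA, against 72.5 ± 4.55% without. Jun had the smallest share with PMA, 10.4 ± 1.02% in KO cells and 9.75 ± 1.47% in HPg cells. The summed level was 721 ± 85.3 CPM per kb in KO cells with PMA, against 142 ± 19.2 without, and 542 ± 166 in HPg cells with PMA, against 159 ± 44.3 without. These are shares of transcripts and say nothing about protein. The shares are given as a description, without a test.

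Mafk had the largest share of the small MAF transcript level in every group. Mafk held 50.4 ± 1.80% in KO cells with PMA, against 51.1 ± 2.72% without, and 49.1 ± 4.28% in HPg cells with PMA, against 50.3 ± 2.17% without. Maff had 37.9 ± 3.97% in KO cells with PMA, against 27.5 ± 2.07% without, and 35.8 ± 2.68% in HPg cells with PMA, against 25.6 ± 1.07% without. Mafg had 11.7 ± 2.24% in KO cells with PMA, against 21.4 ± 2.13% without, and 15.1 ± 1.60% in HPg cells with PMA, against 24.1 ± 1.65% without. The Maff and Mafg shares did not overlap between libraries with and without PMA in either line, while the Mafk shares did.

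**Figure D3:**
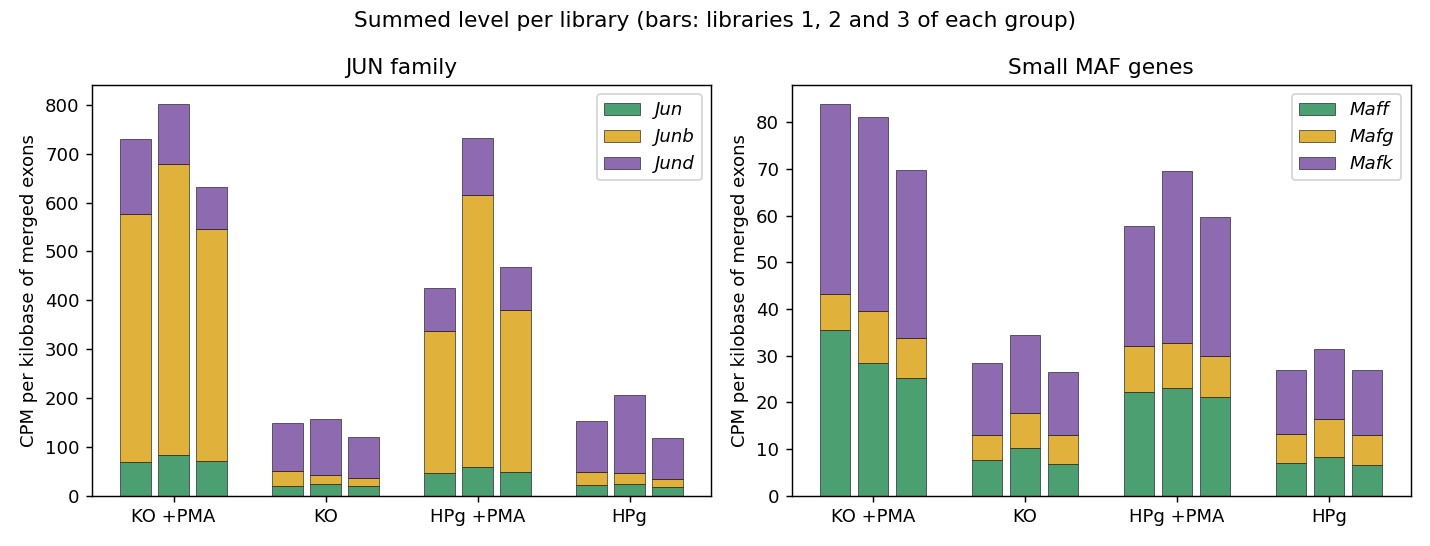
CPM per kilobase of merged exons of the 3 JUN genes (left) and the 3 small MAF genes (right), stacked per library. Junb fills 73.0% of the JUN family bar in KO cells with PMA and 71.7% in HPg cells with PMA on average, against 15.9% and 14.0% without PMA.

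Without PMA, none of the 7 genes was called between KO and HPg cells, beside 1.32% of all genes. Their log2 fold changes (KO over HPg) ran from -0.23 for Jund to 0.18 for Maff, and for none did all libraries of a line lie on one side of the other line's, where 9.57% of all genes lay higher in KO cells and 8.95% lower. The 95% interval was -0.35 to 0.32 for Jun, -0.54 to 0.65 for Junb, -0.78 to 0.32 for Jund and -0.66 to 0.46 for Atf3. For the small MAF genes it was -0.18 to 0.54 for Maff, -0.47 to 0.24 for Mafg and -0.21 to 0.38 for Mafk. The blocked fit, which called 12.5% of all genes, also called none of the 7.

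With PMA, 6 of the 7 genes had a higher fitted level in KO than in HPg cells, but none passed the test without the block, beside 2.47% of all genes called. The log2 fold change (KO over HPg) was 0.65 for Atf3 (adjusted p = 0.2), 0.54 for Jun (0.0848), 0.42 for Maff (0.199), 0.42 for Junb (0.447), 0.36 for Mafk (0.192) and 0.30 for Jund (0.571). Mafg had -0.04 (0.934). Leaving out 1 library moved these values to between 0.45 and 0.99 for Atf3, 0.27 and 0.52 for Maff, 0.23 and 0.75 for Junb, 0.23 and 0.50 for Mafk, and 0.09 and 0.49 for Jund. All KO libraries lay above all HPg libraries for Jun and Maff, as they did for 12.5% of all genes.

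The blocked fit called 4 of the 7 genes higher in KO cells with PMA, beside 9.49% of all genes called higher and 18.6% in either direction. These were Jun (0.54 ± 0.10 SE, adjusted p = 0.00235), Mafk (0.36 ± 0.10, 0.0212), Maff (0.42 ± 0.12, 0.0289) and Atf3 (0.67 ± 0.20, 0.0392). Junb (adjusted p = 0.175), Jund (0.201) and Mafg (0.729) did not pass it. Within numbers, the log2 ratio of KO to HPg CPM with PMA was 0.55, 0.49 and 0.60 for Jun, 0.81, 0.10 and 0.51 for Junb, and 0.94, 0.44 and 0.69 for Atf3. It was 0.67, 0.30 and 0.25 for Maff and 0.65, 0.17 and 0.28 for Mafk. Jund had 0.78, 0.07 and -0.03, and Mafg -0.34, 0.20 and -0.04. How many of all genes were higher in KO cells in every number was not counted. Number 2, whose libraries stood apart in matrix genes, gave the smallest ratio for Junb, Atf3, Jun and Mafk, and the part of the matrix genes in this was not tested. Number 1 gave the largest ratio for Junb, Atf3, Maff, Mafk and Jund, number 3 for Jun and number 2 for Mafg. KO library 1 with PMA had the largest share of counts on Rpph1, Rn7sk and Rmrp (19.2%), and the part of that share was not tested either. Without HPg library 2 with PMA, Atf3 passed the unblocked test at 0.99 (adjusted p = 0.0422). DESeq2 called only Jun (adjusted p = 0.0314). The edgeR block with a GC content and length correction called Jun (0.38, adjusted p = 0.016) and Atf3 (0.58, adjusted p = 0.0345), but not Maff or Mafk. Both values were smaller than with the block alone. The split of all calls with PMA was 215 higher and 196 lower, against 163 and 217 when scaled by library size alone and 270 and 129 with upper-quartile factors.

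**Figure D4:**
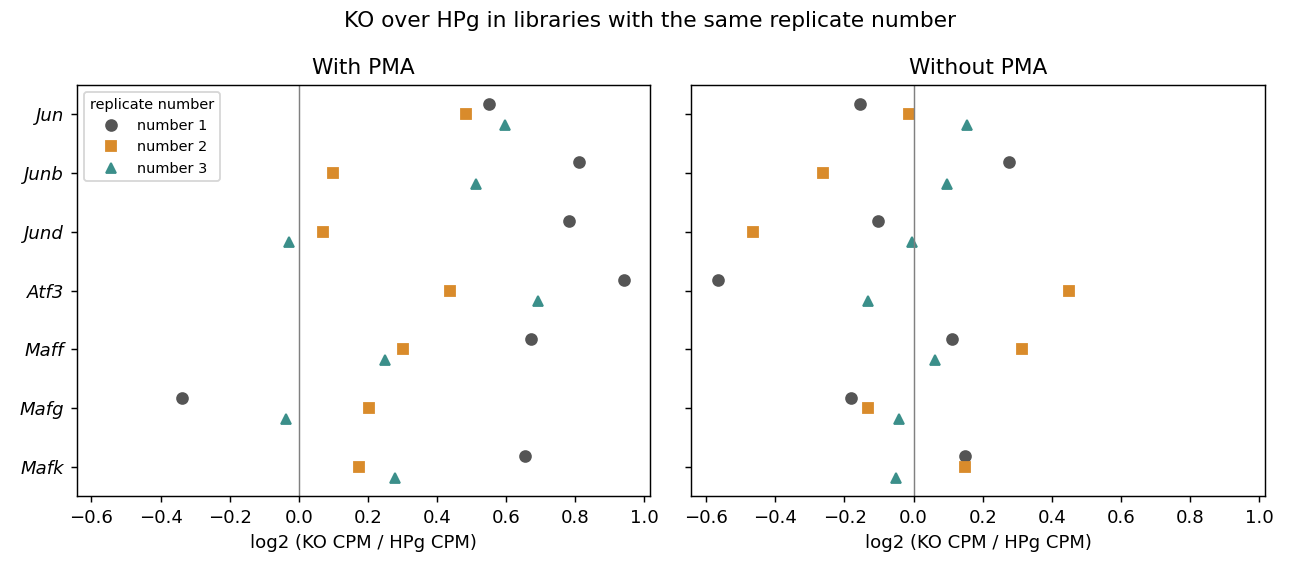
Log2 ratio of CPM, KO over HPg, within libraries of the same replicate number, with PMA (left) and without PMA (right). With PMA, Jun, Junb, Atf3, Maff and Mafk lie above 0 in 3 of 3 numbers, and without PMA, Maff does. The share of all genes that do so was not counted.

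The test of whether the response to PMA differed between the lines called none of the 7 genes, and none of 16630 genes by edgeR with or without the block. At an unadjusted p below 0.05 it gave 328 genes without the block and 1275 with it, and DESeq2 called 1 gene. The difference of responses (KO minus HPg, log2) was 0.74 for Atf3, 0.55 for Jun, 0.53 for Jund, 0.37 for Junb, 0.27 for Mafk, 0.24 for Maff and 0.08 for Mafg. Its 95% interval was -0.04 to 1.53 for Atf3 and 0.08 to 1.02 for Jun, the gene among the 7 with the smallest unadjusted p (0.0244). With the block the interval was 0.16 to 1.44 for Atf3, 0.26 to 0.85 for Jun and 0.03 to 0.95 for Jund. It included 0 for the others. The unadjusted p in that edgeR fit was 0.0185 for Atf3, 0.00139 for Jun and 0.0381 for Jund, with an adjusted p of 0.629 for each. Within numbers, the response of Jun was larger in KO cells by 0.71, 0.50 and 0.44, that of Junb by 0.54, 0.36 and 0.42, and that of Mafk by 0.50, 0.03 and 0.33. The other 4 genes had a larger response in KO cells in 2 of 3 numbers. The shares of all genes with such patterns were not counted.

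All 4 FOS genes, whose products dimerise with JUN proteins, were called higher with PMA in both lines. Of all genes, 2.81% were called higher in KO cells and 2.53% in HPg cells. Fos had 418, 250 and 238 CPM in KO cells with PMA, against 4.19, 1.94 and 1.97 CPM without, a log2 fold change of 6.81. HPg cells had 131, 188 and 110 CPM with PMA, against 2.53, 2.42 and 1.34 CPM without, a log2 fold change of 6.10. Fosl1, which encodes FRA1, had log2 fold changes of 4.44 in KO cells and 3.47 in HPg cells, Fosb 2.90 and 2.24, and Fosl2 1.43 and 1.08. The median over the 4 was 3.67 in KO cells and 2.86 in HPg cells, beside 1.85 and 1.30 over the 7 JUN, ATF3 and small MAF genes and -0.02 over all genes in each line. Between the lines with PMA only Fosl1 was called without the block (0.63, adjusted p = 0.0081), with 75.8, 77.3 and 70.3 CPM in KO cells and 48.2, 47.1 and 48.7 CPM in HPg cells. With the block all 4 were called higher in KO cells with PMA, in the fit that called 9.49% of all genes higher. Without PMA the block called Fosl1 lower in KO cells (-0.33, adjusted p = 0.036), which the unblocked fit did not (adjusted p = 0.148).

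Of 11 tested ATF, BATF and CREB-type partners, 1 was called higher with PMA in each line and none lower. It was Ddit3, which encodes the stress factor CHOP, at 1.88 in KO cells (adjusted p = 3.16e-05) and 1.70 in HPg cells (adjusted p = 0.000104). Of all genes, 2.81% were called higher with PMA in KO cells and 2.53% in HPg cells. With the block 2 of the list were called higher in KO cells and 4 in HPg cells, beside 6.79% and 8.62% of all genes. Atf5 was called between the lines with PMA (0.84, KO over HPg, adjusted p = 0.0149), as were 2.47% of all genes. There the block called 3 of the list higher and 1 lower in KO cells. Of all genes it called 9.49% higher, and 1512 of 16630 lower. Without PMA the block called 2 of the list higher in KO cells, beside 1178 of 16630 genes, and the unblocked fit called 0 of the list. Of the 6 CNC and BACH partners of small MAF proteins, 1 was higher with PMA in KO cells and 2 in HPg cells. With the block it was 2 in each line. The shares of all genes were those given above, 2.81% and 2.53% without the block and 6.79% and 8.62% with it. Nfe2l2, which encodes NRF2, had 1.00 in KO cells and 1.06 in HPg cells. Bach1, which encodes a repressor of antioxidant genes, passed in HPg cells (0.53, adjusted p = 0.0488). Its interaction of line and PMA did not pass the test.

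Of 11 tested genes known as AP-1 targets, 4 were called higher with PMA in KO cells and 3 in HPg cells, and none lower. With the block these counts were 6 and 5. Of all genes, 2.81% in KO cells and 2.53% in HPg cells were called higher without the block, and 6.79% and 8.62% with it. Hbegf, which encodes a ligand of the EGF receptor, had log2 fold changes of 3.57 in KO cells and 2.89 in HPg cells. Lif, a cytokine gene, had 2.89 and 2.47, and Plaur, the urokinase receptor gene, 1.03 and 0.69. Plau, which encodes urokinase, was called in KO cells (0.97, adjusted p = 0.0355), and its interaction of line and PMA did not pass. Hbegf was also called between the lines with PMA, with 106, 105 and 95.7 CPM in KO cells and 52.5, 57.2 and 58.8 CPM in HPg cells (0.87, adjusted p = 0.0473). It was the 1 gene of the list called there, against 7 of 11 called higher in KO cells with the block. Of all genes, 2.47% were called there without the block, and 9.49% were called higher with it. Without PMA the block called 1 of the list higher in KO cells, beside 1178 of 16630 genes, and the unblocked fit called 0 of the list. The median log2 fold change of the list was 0.73 in KO cells and 0.55 in HPg cells.

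Of 10 antioxidant genes known to carry sites for CNC-small MAF dimers, 3 were called higher with PMA in each line and none lower. With the block 7 were called higher in KO cells and 4 in HPg cells. Of all genes, 2.81% in KO cells and 2.53% in HPg cells were called higher without the block, and 6.79% and 8.62% with it. Hmox1, which encodes heme oxygenase 1, had 592, 440 and 417 CPM in KO cells with PMA, against 107, 75.8 and 112 CPM without (2.30, adjusted p = 0.000121). The HPg libraries had 498, 491 and 415 CPM with PMA, against 192, 105 and 156 CPM without (1.63, adjusted p = 0.00216). Gclc, which encodes the catalytic subunit of the first enzyme of glutathione synthesis, had log2 fold changes of 0.89 in KO cells and 0.78 in HPg cells, and Slc7a11, the cystine transporter gene, 0.59 and 0.95. The median of the list was 0.48 in KO cells and 0.36 in HPg cells. Between KO and HPg cells without PMA its median was -0.40 with none called, and 5 were called lower in the blocked fit, which called 5.44% of all genes lower. With PMA 0 were called between the lines, and 2 lower in KO cells with the block, which called 1512 of 16630 genes lower.

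**Figure D5:**
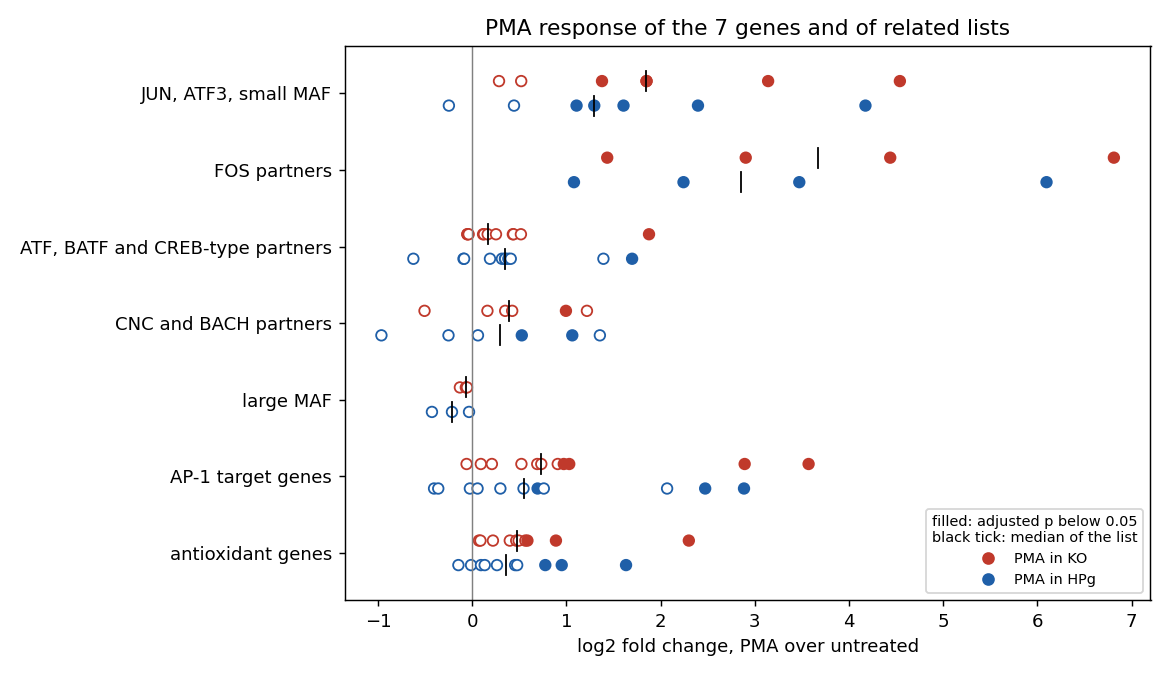
Log2 fold change with PMA of the 7 genes and of related lists in KO cells (upper row of each list) and HPg cells (lower row); filled points have an adjusted p below 0.05 and the black tick is the median. All 4 FOS genes and 5 of the 7 JUN, ATF3 and small MAF genes are filled in both lines, and no large MAF gene is.

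The genes whose profile over the 12 libraries was nearest to each called gene were found among 11205 genes by the root-mean-square difference of log2 CPM centred on the gene's mean. Nearest to Jun were Grasp (0.15), Myc (0.16) and Zfp36l2 (0.17), where Jun itself spread by 0.83 around its mean. Nearest to Junb, with a spread of 2.21 (root mean square), were Btg2 (0.28), Errfi1 (0.33) and Zfp36 (0.34). Nearest to Atf3, with a spread of 1.43, were Trib1 (0.18), Ier3 (0.26) and Csrnp1 (0.31). Maff was nearest to Map2k3os (0.17), Arid5a (0.17) and Myc (0.19), and Mafk to Cebpb (0.13), Mcl1 (0.13) and Nfil3 (0.15). All of these were called higher with PMA in both lines, which the choice by likeness to called genes largely fixes.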

How the data were processed

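RNA without ribosomal RNA was sequenced as strand-specific paired ends, per the labels' protocols. The deposited values are unnormalized whole-number counts per gene, as the values show. Per the submitters' processing notes, cutadapt 1.11, STAR 2.5.0a, Subread and featureCounts 1.4.6-p3 were used with build mm9; the sources used here give neither annotation release nor strand setting.

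Symbols (32620 of 37310 genes), exon lengths and overlaps came from GENCODE M21 and gene tables on GRCm38, and no coordinates were taken to mm9. Libraries of a group differed beyond sampling noise in each pair (chi-square per degree of freedom 104.1 to 689.2). Genes passing filterByExpr (minimum count 10, minimum total 15) entered 1 edgeR 4.0.16 quasi-likelihood fit (R 4.3.3, robust, TMM) over 12 libraries, with Benjamini-Hochberg adjustment over 16630 genes and 5 contrasts. The fit was tested on simulated counts in which same-numbered libraries did not deviate together, so that test does not cover this feature of the data.

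Same-numbered libraries deviated together: correlations of deviations from group means were 0.128 to 0.521 in 18 pairs, against -0.487 to 0.156 in 36 pairs of different numbers. The labels give the numbers but not what a number shares.

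There were 10 alternatives, among them DESeq2 1.42.0, and 12 fits without 1 library. GC content was that of the longest transcript, known for 15764 genes. The 7 genes, lists and motifs were chosen with earlier results of these data known. Text names the 7 genes, Cbx3, the FOS genes, up to 4 called genes per list and comparison, and the 3 nearest profiles (mean of at least 1 CPM) of each called gene; overlapping genes and markers were added.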

Additional observations from a re-analysis of the deposited data

How the results depend on the processing

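The calls of Junb, Atf3, Jun, Maff and Mafk with PMA were kept in both lines under all 10 alternatives and without any 1 library. The counts of all genes called depended strongly on the fit. With PMA in KO cells 739 genes were called, but 2221 with the replicate block, 2955 when the block was joined by a GC content and length correction, and 1279 by DESeq2; in HPg cells 574, but 2462, 2286 and 1196, and 222 when only the groups compared were fitted. Between KO and HPg cells without PMA 219 were called, but 2083, 3093 and 775 under the same 3, 430 with the correction alone (202 higher and 228 lower, against 134 and 85) and 12 in the fit of these groups only. With PMA 411 were called between the lines, but 3090, 3504 and 1174. Of the 7 genes, 0 were called between the lines with PMA, but 4 with the block, 2 with block and correction and 1 by DESeq2, which also called 1 gene in the interaction against 0. Leaving out 1 library gave 295 to 845 genes with PMA in KO cells, 244 to 633 with PMA in HPg cells, 46 to 329 between the lines without PMA, 60 to 573 with PMA (0 to 1 of the 7 genes) and 0 to 1 in the interaction (1 without KO library 1). The counts differed by over 1.5 times without any KO library or KO PMA library 2 or 3 (PMA in KO cells), without any HPg or HPg PMA library or KO library 3 (PMA in HPg cells), without any KO or HPg library (lines without PMA), and without any KO PMA library, HPg PMA library 1 or 3, KO library 3 or HPg library 3 (lines with PMA). With the longest transcript as length, Junb made up 77.4% in KO cells with PMA, 76.3% in HPg cells with PMA and 17.2% in HPg cells, and Maff 27.2% in HPg cells.

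Values near 0 changed sign. Between the lines without PMA, Jun had 0.0215 with upper-quartile factors and 0.0033 by library size. Between the lines with PMA, Mafg had 0.0189 with upper-quartile factors, and its interaction was -0.0071 by library size, -0.0502 with the correction and -0.0678 with block and correction. Without 1 library, the range was -0.42 to 0.0527 for Jund with PMA in HPg cells. Between the lines without PMA it was -0.15 to 0.0662 for Jun, -0.24 to 0.20 for Junb, -0.42 to 0.0679 for Jund, -0.25 to 0.12 for Atf3, -0.0197 to 0.30 for Maff and -0.26 to 0.0207 for Mafg. For Mafg it was -0.20 to 0.0616 between the lines with PMA and -0.0839 to 0.21 in the interaction. The cause of these differences was not tested, other than that a fit without a library or with fewer groups has fewer samples.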

Other observations

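The large MAF genes, which unlike the small MAF genes encode an activation domain, gave no call with PMA. Of the 3 tested, 0 passed the edgeR test in either line, with or without the replicate block, and their median log2 fold change with PMA was -0.07 in KO cells and -0.21 in HPg cells. Nrl fell below the filter on low counts, and so did Mmp10 among the AP-1 targets. Atf7 was not analysed here.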
